A study of Mus musculus with 6 samples.

Results

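The genes described here are transcripts typical of red blood cell precursors and of platelets, measured in regulatory T cells (Tregs) that had been sorted from mouse spleen. A list of 30 gene symbols was followed, 24 of the red cell lineage and 6 of platelets. A gene was measured where the array's annotation gave its symbol alone to a probe set, and the probe set with the highest mean represented it, which left 28 of 18193 genes, 22 of the red cell and 6 of the platelet list. Hbb-b1 had no probe set of its own, and Ahsp was not analysed here.

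All 6 mice were female NOD mice, a strain prone to autoimmune diabetes, and all carried the transgenic BDC2.5 T cell receptor and the Foxp3GFP reporter, which marks Foxp3-expressing cells green. The 3 treated mice were RAG1o/o, lacking the enzyme that rearranges receptor genes, and received 37.5 µg of the anti-CD3 antibody KT3 intravenously on each of 5 consecutive days from an age of 17 days. Spleens of treated mice 1 and 2 were taken at 29 days of age and that of treated mouse 3 at 28 days, which the labels give as 12, 12 and 11 days after treatment. The 3 untreated mice were RAG1+/o and were 29, 28 and 28 days old. Antibody and genotype differed together, so their parts in any difference cannot be told apart. Each array held the CD4+ GFP+ cells of 1 mouse, sorted as negative for B220, CD8a and CD11b/c.

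Red cells form from nucleated precursors in marrow and, in young mice and under demand, in the spleen, where Gata1, Klf1 and Tal1 switch on globins, haem synthesis and a specialised membrane. Platelets are shed by megakaryocytes, which share Gata1, Tal1 and Nfe2 with red cells and fill granules with the chemokines Pf4 and Ppbp. T cells are not the usual source of globin or of platelet granule chemokines. Tfrc, Car2 and Fech are used by many cell types, so those 3 genes are less particular to red cells.

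The regulators bind DNA at short motifs, and the sequences before the start sites are shown for the 3 red cell members with the widest spread over arrays and 1 listed start (Hemgn, Rhag and Alas2) and for both platelet chemokine genes. Each run covers the 250 bases before the RefSeq start in build GRCm38.p6, read 5′ to 3′ on the gene's strand. Capitals mark the motif of GATA factors or the Klf1-type motif CACCC, on either strand. The first was searched as AGATAA and as AGATAG, and also with a leading T as TGATAA and as TGATAG. Hemgn lies on chr4:46404184-46404433 (minus strand), Rhag on chr17:40810899-40811148 (plus), Alas2 on chrX:150547167-150547416 (plus), Pf4 on chr5:90772185-90772434 (plus) and Ppbp on chr5:90768268-90768517 (plus).
Hemgn: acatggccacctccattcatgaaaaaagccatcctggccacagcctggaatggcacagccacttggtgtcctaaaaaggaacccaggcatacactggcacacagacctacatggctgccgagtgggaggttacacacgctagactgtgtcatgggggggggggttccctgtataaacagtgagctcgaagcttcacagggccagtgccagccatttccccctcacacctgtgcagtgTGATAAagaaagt
Rhag: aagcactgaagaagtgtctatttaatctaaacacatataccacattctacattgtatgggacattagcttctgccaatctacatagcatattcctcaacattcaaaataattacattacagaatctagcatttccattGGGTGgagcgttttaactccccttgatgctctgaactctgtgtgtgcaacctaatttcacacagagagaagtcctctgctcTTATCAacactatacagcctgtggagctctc
Alas2: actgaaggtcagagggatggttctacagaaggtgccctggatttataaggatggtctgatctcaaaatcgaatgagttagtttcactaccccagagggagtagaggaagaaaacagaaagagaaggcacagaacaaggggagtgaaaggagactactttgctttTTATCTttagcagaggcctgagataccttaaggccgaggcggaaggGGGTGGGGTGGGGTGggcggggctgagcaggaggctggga
Pf4: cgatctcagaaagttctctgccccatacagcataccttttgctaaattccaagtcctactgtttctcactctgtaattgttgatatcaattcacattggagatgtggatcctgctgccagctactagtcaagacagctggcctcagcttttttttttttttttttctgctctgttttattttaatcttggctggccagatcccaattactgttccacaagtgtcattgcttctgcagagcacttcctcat
Ppbp: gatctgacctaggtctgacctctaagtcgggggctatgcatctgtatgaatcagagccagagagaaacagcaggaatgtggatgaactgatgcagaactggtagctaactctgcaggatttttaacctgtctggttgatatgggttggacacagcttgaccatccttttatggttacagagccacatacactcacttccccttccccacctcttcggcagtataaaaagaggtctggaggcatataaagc

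Hemgn, Rhag and Alas2 each held 1 GATA motif, beginning 13, 31 and 86 bases before the start. Rhag also held 1 CACCC motif and Alas2 held 3 that lie end to end. Neither motif was found in these letters for Pf4 or Ppbp, neighbouring genes whose starts lie 3917 bases apart. Over the red cell members whose RefSeq windows were used (17 windows of 15 genes), 12 windows (70.6%) held a GATA motif and 14 (82.4%) a CACCC motif. Among all 32851 windows of this length the shares were 26.5% and 52%. Of the 6 platelet windows, 2 held a GATA motif and 2 a CACCC motif. The GATA motif stood in 8 of 11 windows of red cell genes with a range of at least 2 over the arrays and in 4 of 6 windows of those with a smaller range. A motif match describes letters and not a bound site.

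Red cell transcripts varied widely between single mice of both groups. In the list of 22 genes the mean log2 intensity was 9.38, 8.11 and 8.36 in treated mice 1, 2 and 3, and 9.39, 9.30 and 7.12 in untreated mice 1, 2 and 3. Treated mouse 1 was thus at the level of untreated mice 1 and 2, treated mice 2 and 3 lay about a log2 unit lower, and untreated mouse 3 was lowest. The range of a gene, its highest minus its lowest array, was at least 2 log2 units in 14 of 22 red cell genes, against 5.66% of all genes, a limit chosen after the values were seen. Klf1 lay just inside it at 2.15 and Gata1 just outside at 1.91. The median range was 2.89 for the red cell genes, 0.75 over all genes and 0.66 for 20 genes of other organs such as Alb and Ins2. A wide range was not particular to red cell genes: the median was 7.39 for 7 neutrophil genes, 2.77 for 12 myeloid genes and 2.66 for 9 B cell genes. Here and below values are log2 intensities, and since the cells were measured in bulk, fewer cells of a type and less RNA per cell cannot be told apart.

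**Figure D1:**
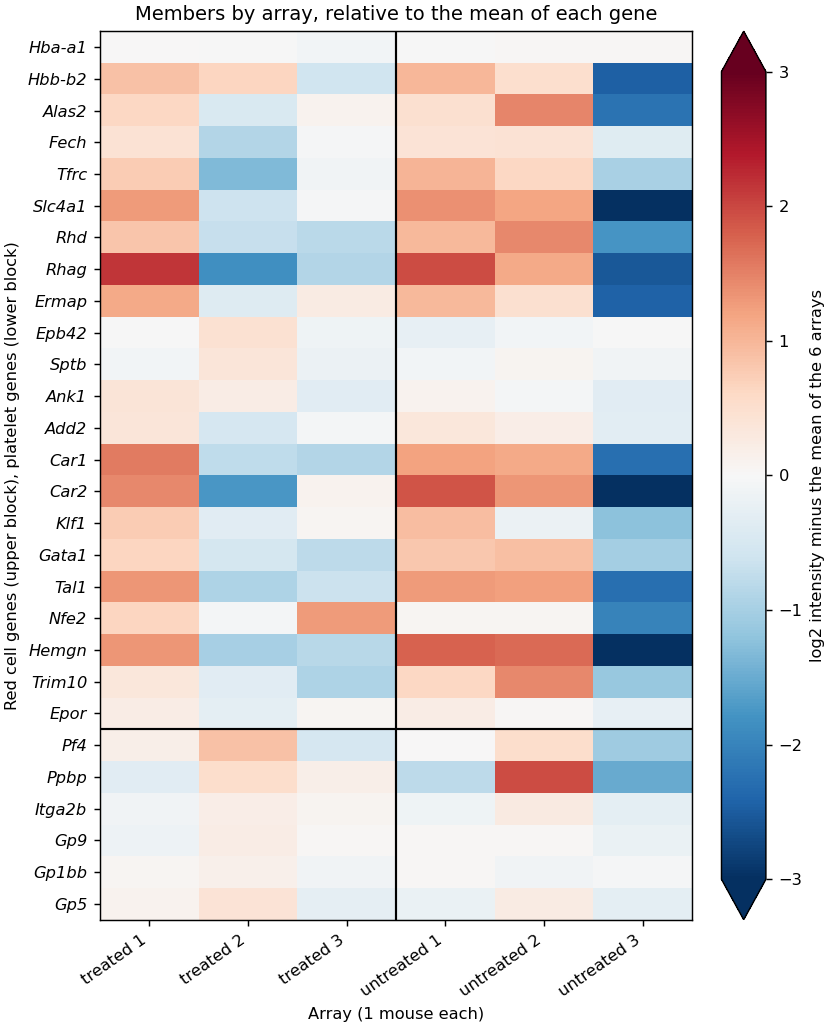
Log2 intensity of each of the 28 members on each of the 6 arrays, minus the gene's mean over the arrays; red is above and blue below that mean, and the colour scale ends at 3 in each direction. Most red cell rows are red for treated 1, untreated 1 and untreated 2 and blue for untreated 3, while Hba-a1, Epb42, Sptb and the 4 platelet receptor genes stay pale.

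**Figure D2:**
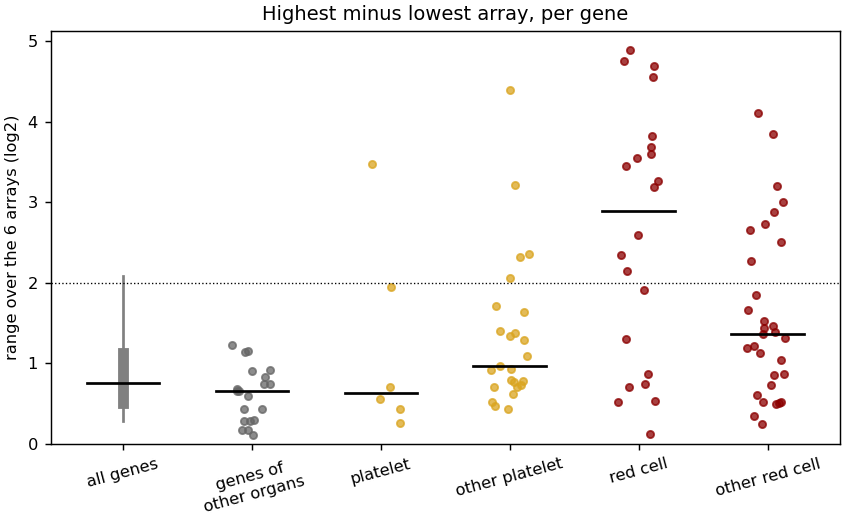
Range over the 6 arrays (log2) for each gene of a list, with the list median as a black line; for all 18193 genes the thick bar spans the 25th to 75th and the thin bar the 5th to 95th percentile, and the dotted line marks 2. Red cell genes have a median of 2.89, whereas 4 of 6 platelet genes lie below 1.

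Globin transcripts were seen mainly by probe sets that several globin genes share. Hbb-b2, a beta globin gene, measured 7.24, 7.00 and 5.75 in treated mice 1, 2 and 3 and 7.36, 6.86 and 3.91 in the untreated ones. The groups overlapped, and untreated mouse 3 was far below the other 5 mice. This probe set is of a type that may also bind near-identical copies, and the second Hbb-b2 probe set had a range of 1.23 against 3.45. The single probe set of Hba-a1, an alpha globin gene, stayed between 5.48 and 5.60 on all 6 arrays. Outside the member rule, a probe set annotated to 4 beta globin genes at once measured 14.14, 12.76 and 12.70 in treated and 13.97, 13.32 and 10.43 in untreated mice. One annotated to both alpha globin genes measured 13.14, 11.15 and 12.20 against 12.87, 11.74 and 8.78. All 4 shared globin probe sets, which name no single gene, had treated mouse 1 highest and untreated mouse 3 lowest, by 2.27 or more log2 units. The flat Hba-a1 value therefore did not stand for the alpha globin signal of the arrays.

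Genes of haem synthesis and iron uptake followed the same mice. Alas2, the first enzyme of haem synthesis in red cells, measured 9.40, 8.33 and 8.88 in treated and 9.26, 10.26 and 6.56 in untreated mice. It was highest in untreated mouse 2 and lowest in untreated mouse 3, a 12.9-fold span. Fech, which inserts iron to form haem, ran from 10.03 in treated mouse 2 to 11.33 in untreated mouse 2. The 3 further Fech probe sets had ranges of 2.68, 2.67 and 0.51, the last with treated mouse 2 highest. Tfrc, the transferrin receptor that dividing T cells also carry, measured 11.66, 9.58 and 10.81 in treated and 11.93, 11.52 and 9.94 in untreated mice. In the representing probe sets of Fech and Tfrc the lowest array was treated mouse 2 and not untreated mouse 3. A dimmer Tfrc probe set was lowest in treated mouse 3 at 6.44. The dimmest had treated mouse 2 highest at 5.37 and untreated mouse 2 lowest at 4.37. By their representing probe sets, all 3 genes had their 3 highest values in treated mouse 1 and untreated mice 1 and 2.

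Membrane proteins of red cells gave some of the widest spans. Slc4a1, the band 3 anion exchanger, measured 11.31, 9.40 and 10.00 in treated and 11.40, 11.20 and 6.84 in untreated mice, a 23.6-fold span. The probe set that represented Slc4a1 was of the same type as that of Hbb-b2, so other similar transcripts may also bind it. The other Slc4a1 probe sets, dimmer on average, spanned 8.3-fold and 1.8-fold, the last with treated mouse 2 highest at 4.56. Untreated mouse 3 was lowest in both. Rhag, the glycoprotein that carries the Rh complex, measured 11.13, 7.16 and 8.11 against 10.96, 10.14 and 6.44. Its span of 25.9-fold set treated mouse 1 with untreated mice 1 and 2, well above the other 3. Rhd, the Rh protein itself, measured 10.24, 8.71 and 8.58 against 10.38, 10.83 and 7.64, in the same pattern. Ermap, a membrane protein of red cell precursors, measured 10.26, 8.74 and 9.38 against 10.10, 9.60 and 6.71.

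For the skeleton beneath that membrane, the representing probe sets had narrow ranges. Ranges were 0.70 for Epb42, 0.52 for Sptb (beta spectrin), 0.74 for Ank1 (ankyrin) and 0.87 for Add2 (beta adducin). These are close to the median of all genes. The choice of probe set bore on this. The other Epb42 probe set, dimmer on average, measured 5.91, 3.28 and 4.08 in treated and 6.53, 7.37 and 3.34 in untreated mice. That probe set ranked treated mouse 1 and untreated mice 1 and 2 above the other 3, as the membrane genes did. So did the represented Add2 probe set and a dimmer one of Add2, which had a range of 1.88.

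The carbonic anhydrases, which interconvert carbon dioxide and bicarbonate, held the widest range of all members. Car2 measured 12.44, 9.25 and 11.10 in treated and 12.90, 12.32 and 8.01 in untreated mice, a 29.6-fold span. Car1, the form more typical of red cells, measured 11.78, 9.46 and 9.35 against 11.44, 11.35 and 7.96. Both groups held high and low mice, and the groups overlapped in both genes.

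Among regulators of the lineage, Hemgn, Tal1, Gata1 and Trim10 had their 3 highest values in treated mouse 1 and untreated mice 1 and 2. Klf1, Nfe2 and Epor did not. Hemgn, a nuclear protein of red cell precursors, measured 10.92, 8.60 and 8.76 in treated and 11.36, 11.29 and 6.60 in untreated mice, a 27.1-fold span. Tal1, a transcription factor of blood stem cells and red cells, measured 9.94, 7.67 and 7.96 against 9.88, 9.85 and 6.33. In Hemgn and Tal1 the 3 high mice lay 2.16 and 1.88 or more above the rest. Gata1, the master factor of the lineage, measured 9.42, 8.25 and 8.0 against 9.59, 9.68 and 7.76. Trim10, required for late red cell maturation, measured 8.10, 7.44 and 6.85 against 8.39, 9.22 and 6.63. Klf1, the activator of adult beta globin, measured 8.65, 7.55 and 7.93 against 8.81, 7.70 and 6.66, with untreated mouse 2 among the lower arrays. Nfe2, a factor shared with megakaryocytes and also present in myeloid cells, measured 7.79, 7.09 and 8.42 against 7.20, 7.21 and 5.15. It was the only regulator of the list with its highest value in treated mouse 3. Epor, the erythropoietin receptor, had a range of 0.53.

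Counted over the list, 14 of 22 red cell genes had their 3 highest values in treated mouse 1 and untreated mice 1 and 2, against 7.28% of all genes. Untreated mouse 3 was lowest in 15 of 22, against 13.3% of all genes. Treated mouse 1 was highest in 7 of 22, against 6.39%. The genes share these 6 arrays and were set side by side because of earlier results, so these counts describe the arrays and carry no test.

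Platelet genes did not follow the red cell order. Pf4, platelet factor 4, measured 8.57, 9.27 and 7.88 in treated and 8.40, 8.91 and 7.32 in untreated mice. Ppbp, the precursor of platelet basic protein, measured 8.30, 9.18 and 8.82 against 7.85, 10.60 and 7.13, an 11.1-fold span. Treated mouse 2 and untreated mouse 2 were the highest arrays for both chemokines, whereas treated mouse 2 was among the 3 lowest arrays in 18 of 22 red cell genes. Untreated mouse 1, high in red cell genes, was the second lowest array for Ppbp.

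The 4 surface receptor genes of platelets varied little. Itga2b, the alpha chain of the fibrinogen receptor, ran from 7.52 to 8.08, and Gp9, Gp1bb and Gp5, parts of the von Willebrand factor receptor complex, had ranges of 0.43, 0.26 and 0.70. The second Gp1bb probe set ran from 4.64 to 5.42. Of the 6 platelet genes, 4 were highest in treated mouse 2, but so were 34.9% of all genes and 13 of the 20 genes of other organs. The ranges of the receptor genes lay within those of the genes of other organs, 0.11 to 1.23. Untreated mouse 3 was lowest in 5 of 6 platelet genes, and no platelet gene had its 3 highest values in treated mouse 1 and untreated mice 1 and 2.

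The comparison the design allows, treated against untreated Tregs, did not separate either list. With limma and Benjamini-Hochberg adjustment over all 18193 genes, 0 of 28 members were higher and 0 lower (0% of all genes in each direction). At an unadjusted p under 0.05 there were also 0 of 28, against 4.99% of all genes. The lowest adjusted p of a member was 0.914, for Nfe2, with a difference of +1.25 (treated minus untreated, 95% interval −0.18 to 2.67). In 0 of 28 members did the groups lie apart without overlap, against 10.9% of all genes. Of the red cell genes 9 had a difference above 0 and 13 below, with a median of −0.05, and the 6 platelet genes were all above 0 with a median of +0.13, beside a median of +0.05 over all genes.

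**Figure D3:**
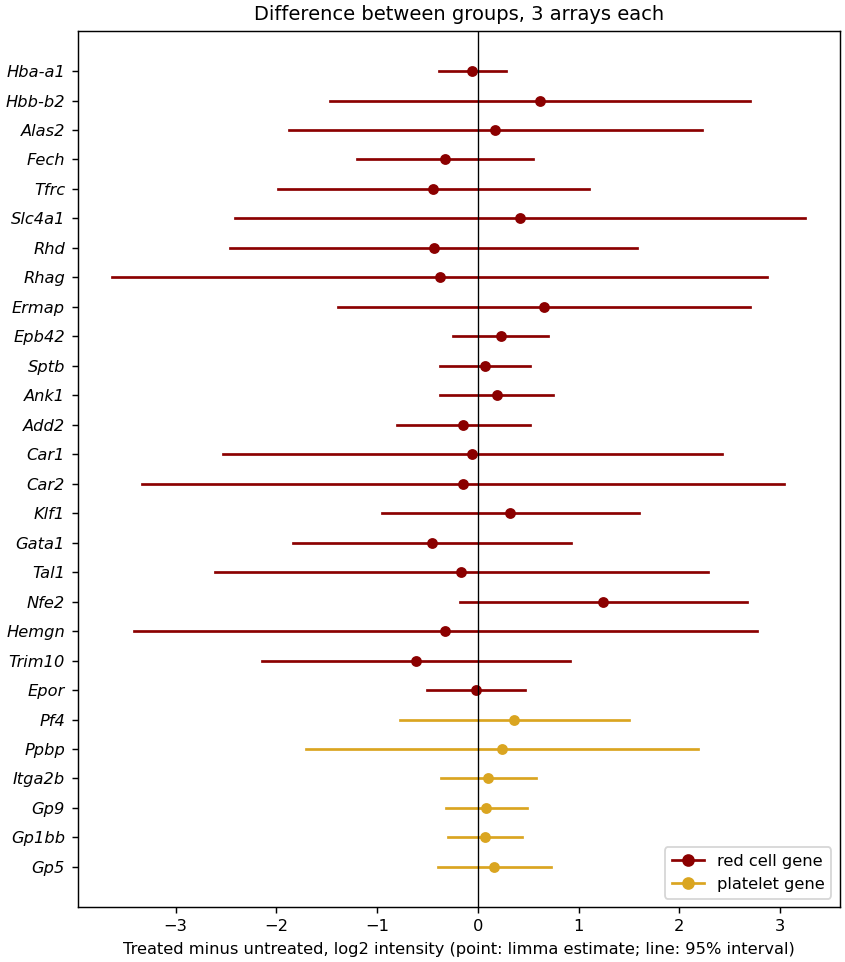
Treated minus untreated difference in log2 intensity for each of the 28 members, with its 95% interval from limma (3 arrays per group). Every interval includes 0, and the intervals of Rhag, Car2 and Hemgn reach beyond 2 log2 units in both directions.

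The intervals were too wide to exclude large differences. For Rhag the treated mean was 8.80 ± 2.08 and the untreated mean 9.18 ± 2.41 (SD, n = 3), a difference of −0.38 with an interval of −3.63 to 2.88. For Car2 the means were 10.93 ± 1.60 and 11.08 ± 2.67, a difference of −0.15 with an interval of −3.34 to 3.04. For Slc4a1 the difference was +0.42 (−2.41 to 3.25), and for Ppbp +0.24 (−1.70 to 2.19). Where the spread was small the intervals were narrow: Epor differed by −0.02 (−0.51 to 0.47) and Gp9 by +0.08 (−0.32 to 0.49).

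Single mice set the direction of the red cell list. Without untreated mouse 3, 18 of 22 red cell genes were lower in treated mice and the median difference was −0.74, beside +0.06 over all genes. The members with the smallest p in that fit were Trim10 at −1.34 (−2.36 to −0.33), Hemgn at −1.90 (−3.53 to −0.27), Rhd at −1.43 (−2.66 to −0.20) and Gata1 at −1.08 (−2.10 to −0.06). For these, limma's adjusted p was 0.686, 0.697, 0.697 and 0.743. Without untreated mouse 1 the median was +0.36, without untreated mouse 2 +0.23, without treated mouse 2 +0.13, without treated mouse 3 +0.06 and without treated mouse 1 −0.25. The platelet median moved to +0.01 without treated mouse 2, to +0.29 without untreated mouse 2 and to −0.005 without untreated mouse 3. In none of these 6 fits did a member pass the adjusted threshold.

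Further genes of both lineages were listed apart from the members, and the red cell ones spread less (median range 1.36 against 2.89). Of 31 other red cell genes 0 passed limma's adjusted threshold and 1 had an unadjusted p under 0.05, against 4.99% of all genes. Of the 31, 14 had a difference above 0 and 17 below, and the median was −0.05. Untreated mouse 3 was lowest in 21 of them, against 13.3% of all genes. The 3 highest values lay in treated mouse 1 and untreated mice 1 and 2 for 17, against 7.28%. Bpgm, the red cell enzyme that makes the haemoglobin effector bisphosphoglycerate, had the smallest p: it measured 10.33, 9.42 and 10.21 in treated and 10.71, 10.94 and 10.36 in untreated mice. Bpgm was the only 1 of the 31 whose groups did not overlap, against 10.9% of all genes, and they lay apart by 0.03. The difference of −0.68 did not pass (limma adjusted p = 0.914). Slc11a2, an iron transporter, differed by −0.27, Zfpm1, the partner of Gata1, by +0.54, and Cat (catalase) by −0.40, all short of the threshold. Of 25 other platelet genes 0 passed limma's adjusted threshold and 0 had an unadjusted p under 0.05, with 18 differences above 0 and a median of +0.10. The smallest p belonged to Gng11 at +0.42, Fli1 at −0.52, Myl9 at +0.57 and Vwf at +0.71. Gng11 was the only 1 of the 25 whose groups did not overlap, with treated mice higher.

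Markers of the sorted cells were present on every array. Cd3e lay between 11.62 and 12.16, Cd4 between 9.10 and 10.41 and Foxp3 between 9.95 and 12.44, with untreated mouse 2 lowest in all 3 genes. Cd3d and Cd3g had wider ranges, 2.32 and 2.27. The mean of 7 T cell and Treg genes was 11.45, 11.36 and 12.00 in treated and 11.17, 10.47 and 11.68 in untreated mice. Untreated mouse 3 was thus highest of the untreated mice there. In 2 of the 7, Foxp3 and Cd3e, treated mice lay above untreated mice without overlap, against 10.9% of all genes. Cd8a and Cd8b1 had ranges of 0.33 and 0.27. Markers of neutrophils and of other myeloid cells had their lowest means in untreated mouse 3, as the red cell genes did. The mean of 7 neutrophil genes was 12.57, 10.99 and 11.96 in treated and 12.18, 11.67 and 6.75 in untreated mice, and that of 12 myeloid genes 9.50, 8.35 and 9.31 against 8.90, 8.95 and 6.94. Untreated mouse 3 was lowest in 6 of the 7 and 10 of the 12, with S100a8 at 6.80, Ngp at 6.33, Lyz2 at 8.01 and C1qb at 6.92 there. The 9 B cell genes had means of 6.85, 6.78 and 6.78 against 9.78, 9.47 and 7.32. Untreated mice stood in the same order as for the red cell genes, with untreated mouse 3 the lowest of them. Treated mouse 1, however, was low in B cell and high in red cell genes. The 6 mast cell and basophil genes, a lineage that also uses Gata1 and Tal1, had means between 6.23 and 6.55 in treated and between 6.18 and 7.43 in untreated mice. The part of these cells in the red cell and platelet values was not tested.

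**Figure D4:**
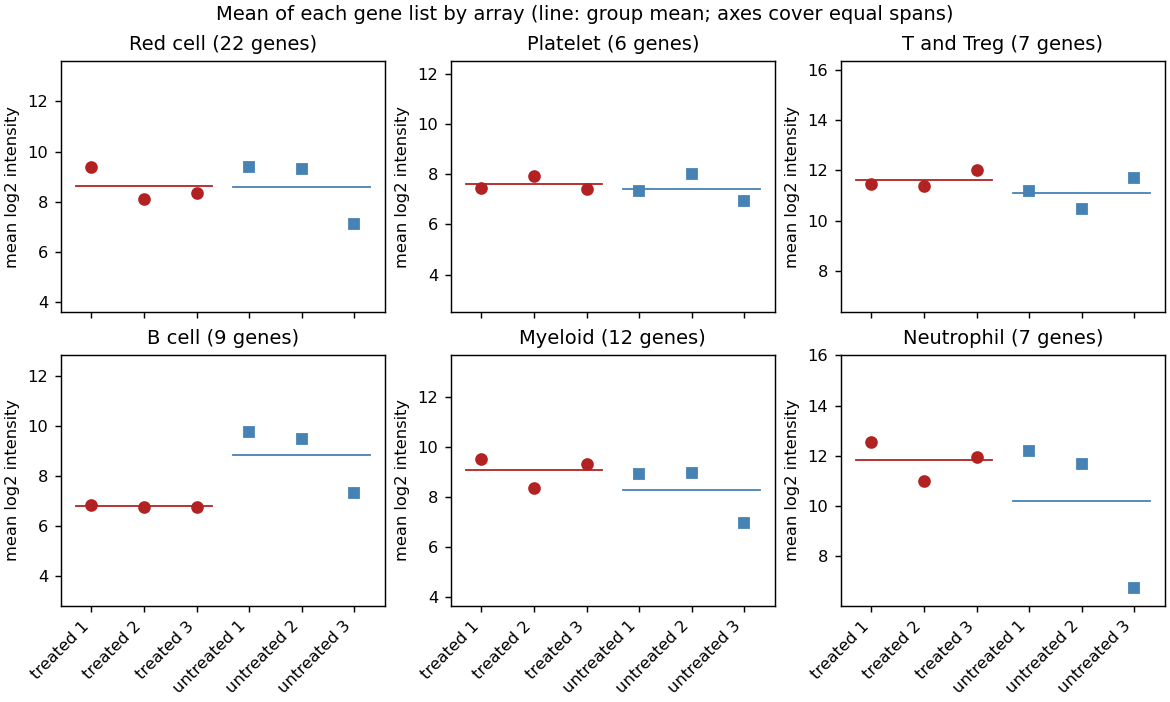
Mean log2 intensity of 6 gene lists on each array, circles for treated and squares for untreated mice, with a line at each group mean; the vertical axes cover equal spans around each list's mean. Untreated 3 is lowest in the red cell, platelet, myeloid and neutrophil lists, and treated 1 is high in the red cell list but low in the B cell list.

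The balance of 3′ and 5′ signal in control probe sets, a sign of RNA length and amplification, differed between the arrays as well. The 3′ minus 5′ signal of the Gapdh control was 3.38, 3.65 and 4.1 log2 units in treated and 3.23, 3.87 and 2.02 in untreated mice, and that of the actin control 1.42, 1.94 and 3.62 against 1.31, 1.95 and 0.92. Untreated mouse 3, lowest in most red cell genes, thus had the smallest imbalance and treated mouse 3 the largest. Its part in the red cell and platelet values was not tested. Array medians lay between 85.3 and 92.4 intensity units, and the number of arrays limits the precision.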

How the data were processed

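RNA from the sorted cells of 6 mice was amplified in 2 rounds and hybridised to Affymetrix M430v2 arrays, per the labels' protocols. The authors ran RMA in GenePattern, per the series' design text, and deposited linear intensity values, which ran from 5.47 to 29584.9. RMA corrects background, normalizes between arrays and summarises probe sets, so a change common to most transcripts cannot be seen. Here log2 was taken with no further scaling. Of 45101 probe sets 64 controls were left out, and 34945 of the remaining 45037 had 1 symbol, 932 several and 9160 none. The test was limma's (version 3.58.1, R 4.3.3), fitted by lmFit and eBayes to all 45037 probe sets. Its p-values were adjusted by Benjamini-Hochberg over 18193 genes, and the threshold was 0.05. P-values measure the spread between mice, 1 array each. Counts and medians describe a list, without a set test. The fit was tested on simulated data. Promoters came from RefSeq (GRCm38.p6), and windows of 21 of the 28 measured members were used. Fech was not among them: its chromosome was left out for the members but kept among all windows. All measured members are named, and of the other 2 lists up to 4 genes with the smallest p, while those of the closing observations were chosen after their values were seen. The members and lists were chosen with earlier results of these data known. Alternatives covered the replicate block, age, scaling, a filter on dim probe sets, the probe set per gene, eBayes settings, array weights, the threshold and each mouse left out. Figures were drawn with matplotlib 3.10.9.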

Additional observations from a re-analysis of the deposited data

How the results depend on the processing

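No member passed limma's adjusted threshold under any alternative, and the lowest adjusted p of a member lay between 0.686 and 1.00 over them. The median differences of the red cell and platelet lists, computed under every alternative but those of eBayes, the threshold and every probe set on its own, moved by less than the pooled within-group SD of the list mean (1.03 and 0.42). The largest shift, of the red cell list without untreated replicate 3, did exceed the SD of the treated mice alone (0.67). The extremes over the mice left out were −0.74 to 0.36 and −0.005 to 0.29. The red cell median was −0.03 with the shared globin probe sets added and −0.02 without Tfrc, Car2 and Fech, both chosen after the data were seen. Over all genes, 1 passed with median centring, 5 with array weights, 2 at an adjusted p of 0.1, and 0 to 32 with one mouse left out; the largest count came without untreated replicate 3. With the replicate block 0 genes and 0 members passed (lowest adjusted p of a member 0.703) and the list medians were unchanged at −0.05 and 0.13. The replicate numbers were not taken to pair the mice. Deviations of same-numbered mice from their group means correlated at 0.51, 0.01 and 0.10. Treated mice 1 and 3 correlated best with the untreated mouse of their number, and treated mouse 2 with untreated mouse 3 (0.23). Deviations within a group depend on each other, so these correlations cannot settle whether the mice were paired.

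The direction turned for 22 of 28 members under at least 1 alternative. With array weights Car1 was at 0.40, Rhag at 0.36, Sptb at −0.0089, Add2 at 0.038, Car2 at 0.15, Tal1 at 0.21, Epor at 0.064 and Gp9 at −0.069. Quantile normalization put Car1 at 0.031, age as a covariate put Slc4a1 at −0.036, and the mean of the probe sets put Epb42 at −0.55. With one mouse left out the differences ran from −1.07 to 1.21 for Slc4a1, −1.20 to 0.54 for Car1, −1.75 to 0.51 for Rhag, −0.084 to 0.18 for Sptb, −0.36 to 0.078 for Add2, −1.68 to 0.76 for Car2, −1.34 to 0.43 for Tal1 and −0.14 to 0.13 for Epor. They ran from −0.011 to 0.18 for Gp9, −0.89 to 0.96 for Alas2, −0.62 to 0.025 for Fech, −1.04 to 0.11 for Tfrc, −1.90 to 0.48 for Hemgn, −0.0014 to 0.34 for Gp5, −0.46 to 1.28 for Ppbp, −1.43 to 0.17 for Rhd and −0.45 to 1.27 for Hbb-b2. For Ermap they ran from −0.39 to 1.30, for Klf1 from −0.21 to 0.87, for Pf4 from −0.085 to 0.71 and for Itga2b from −0.016 to 0.26. The fits with a mouse left out rest on fewer samples, and the cause of the other shifts was not tested. The arrays give no detection call, so whether a narrow range reflects a gene below background cannot be settled here.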

Other observations

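The probe sets of embryonic globin genes gave no sign of the spread seen in adult red cell genes, but they were dim. The ranges over the 6 arrays were 0.25 for Hbb-y, 0.49 for Hbb-bh1 and 0.52 for Hba-x, all below the median of all genes (0.75). Their mean log2 intensities were 5.68, 5.87 and 5.81, under the limit of 6 of the filter on dim probe sets. Whether these genes lay below background cannot be settled here. The other red cell list as a whole spread less than the members, with a median range of 1.36 against 2.89 and 9 of 31 genes at 2 or more. Some of its genes had wide ranges. Aqp1, a water channel, measured 10.09, 8.06 and 8.24 in treated and 10.57, 9.92 and 6.45 in untreated mice, and Cldn13, a claudin, 10.71, 9.10 and 8.42 against 10.67, 9.82 and 7.51. Both had untreated mouse 3 lowest. These genes were named after their values were seen.

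Genes of the other platelet list differed in the order of the mice. Rgs18, a regulator of G protein signalling, measured 8.32, 5.76 and 7.91 in treated and 8.28, 8.84 and 4.45 in untreated mice, with its 3 highest values in treated mouse 1 and untreated mice 1 and 2, the order of most red cell members. Tubb1, the tubulin of platelets, measured 6.48, 7.19 and 7.53 against 6.74, 8.16 and 6.10, with untreated mouse 2 highest as in Ppbp. The basophil protease gene Mcpt8 measured 6.45, 6.96 and 6.13 against 8.32, 9.15 and 6.17. These 3 genes too were chosen after their values were seen.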
